A study of Mus musculus with 35 samples.

Results

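The mitosis genes are 43 genes whose products drive, build or check cell division. They were listed by symbol. On the Affymetrix Mouse 430A2 array, 42 of the 43 were found among 12393 genes measured, each as the probe set with the highest mean over all 35 arrays. Espl1, which encodes separase, is not described. The members fall into 8 roles: kinases and cyclins of mitotic entry (7), the chromosomal passenger complex (3), the spindle checkpoint (4), centromere proteins (4), spindle motors and microtubule proteins (10), cytokinesis regulators (2), chromosome structure (7) and regulators of anaphase and cohesion (5 measured).

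In mitosis, Cdk1 bound to cyclins drives entry. Condensins and topoisomerase II then shape the chromosomes, and kinesin motors and their partners build the spindle. The spindle checkpoint holds back the anaphase-promoting complex until every kinetochore is attached, after which the complex, with Cdc20, starts anaphase. Transcripts of most of these genes build up in G2 and M phase, so their level in a bulk sample moves with the share of dividing cells. In such a sample, fewer dividing cells and less RNA per cell cannot be told apart. In the B lineage, large pre-B cells, germinal centre B cells and plasmablasts are known to divide, whereas naive B cells and mature plasma cells rest.

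Many genes of this kind are known to carry a cell cycle genes homology region (CHR), with the letters TTTGAA or TTCGAA, bound by complexes of the MuvB core, and upstream of it CCAAT boxes bound by NF-Y. Because most members moved one way between several of the normal stages, their promoters were searched on both strands from 250 bases before to 50 bases after the RefSeq start site (GRCm38.p6). TTCGAA reads the same on both strands, and a CHR form can share only an end base with a CCAAT box. Of the 43 listed genes, 37 had an entry, with 39 windows. Kif20a, Smc4, Incenp, Tpx2, Aurkb and Ccna2 had none. The first 4 members in list order that held a CHR form are shown to make the element visible. Each is written 5′ to 3′ in the direction of transcription, with every CHR match in capitals. They lie at chr2:172370521-172370820 on the minus strand (Aurka), chr2:127831810-127832109 on the minus strand (Bub1), chr2:118597961-118598260 on the plus strand (Bub1b) and chr19:37376132-37376431 on the plus strand (Kif11).
Aurka: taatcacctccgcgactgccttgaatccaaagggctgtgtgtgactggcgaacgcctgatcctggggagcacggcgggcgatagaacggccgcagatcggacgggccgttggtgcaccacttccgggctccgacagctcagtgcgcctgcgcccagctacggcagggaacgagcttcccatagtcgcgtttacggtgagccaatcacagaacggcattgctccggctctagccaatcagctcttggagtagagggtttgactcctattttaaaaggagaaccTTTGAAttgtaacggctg
Bub1: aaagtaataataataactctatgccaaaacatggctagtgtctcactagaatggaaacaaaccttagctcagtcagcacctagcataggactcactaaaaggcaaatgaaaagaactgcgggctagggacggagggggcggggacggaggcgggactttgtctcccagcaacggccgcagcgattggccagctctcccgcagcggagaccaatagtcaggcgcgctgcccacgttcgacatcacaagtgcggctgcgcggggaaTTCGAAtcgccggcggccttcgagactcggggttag
Bub1b: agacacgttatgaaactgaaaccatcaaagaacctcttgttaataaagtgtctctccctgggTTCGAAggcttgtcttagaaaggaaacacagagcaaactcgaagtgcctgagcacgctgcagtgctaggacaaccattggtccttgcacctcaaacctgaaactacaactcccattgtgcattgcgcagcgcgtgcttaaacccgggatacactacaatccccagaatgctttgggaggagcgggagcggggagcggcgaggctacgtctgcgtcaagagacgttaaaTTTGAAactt
Kif11: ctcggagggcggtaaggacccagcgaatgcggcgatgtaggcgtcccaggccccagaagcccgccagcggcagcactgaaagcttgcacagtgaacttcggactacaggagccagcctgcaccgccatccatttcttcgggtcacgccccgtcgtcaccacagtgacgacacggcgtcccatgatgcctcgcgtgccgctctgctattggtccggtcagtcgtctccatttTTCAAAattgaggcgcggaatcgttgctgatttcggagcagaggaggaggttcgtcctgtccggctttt

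In Aurka the match covered bases 33 to 38 after the start, and in Bub1 bases 15 to 20. Bub1b held 1 match at bases 41 to 46 and another from -188 to -183. In Kif11 the capitals are TTTGAA on the opposite strand, from -19 to -14. Of the 39 member windows, 31 (79.5%) held TTTGAA or TTCGAA, against 19.2% of all 32851 RefSeq promoter windows of this length and 14.6% of the 12566 windows of genes on the array. TTTGAA alone was in 76.9% of member windows and 17.9% of all windows, and TTCGAA in 7.69% and 1.56%. CCAAT was in 82.1% of member windows and 37.4% of all. Both kinds occurred in 74.4% of member windows, 7.52% of all windows and 5.76% of those of array genes. By gene, 29 of 37 held a CHR form, 26 of them within 50 bases of the start. Birc5, Cenpe, Cks2, Mad2l1, Ncaph, Nek2, Nusap1 and Pttg1 did not hold these letters in this window. A match is a description of letters and was not tied to any value on the arrays.

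**Figure D1:**
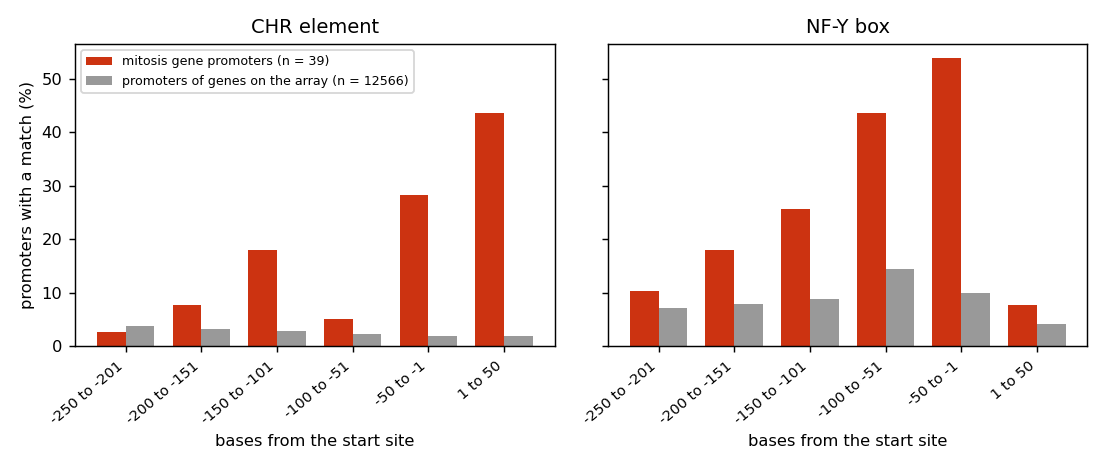
Share of promoter windows (percent) with a match in each bin of 50 bases from the start site, for the 39 windows of mitosis genes (red) and the 12566 windows of genes on the array (grey). The CHR element is TTTGAA or TTCGAA, and the NF-Y box is CCAAT, on either strand. The CHR share of mitosis genes is 28.2% in the 50 bases before the start and 43.6% in the 50 bases after, where array genes have 1.93% and 1.84%, and the NF-Y box peaks at 53.8% just before the start.

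The values are log2 intensities in 35 arrays of 9 groups. The 6 groups of sorted cells, 22 arrays, came from wild-type mice. The 3 pro-B arrays hold bone marrow cells sorted as IgM-, B220+ and CD43-high, from strain 129 (2 arrays) and B6 (1 array). The 3 pre-B arrays hold IgM-, B220+, CD43-low bone marrow cells of strain 129. Spleens of strain 129 gave transitional B cells, sorted as Cd93+ and B220+ (4 arrays). Spleens of strain B6 gave germinal centre (GC) B cells, sorted as PNA-high and B220+ (5 arrays), and plasmablasts, which were Cd138+, Cd93- and B220+ (4 arrays). Plasma cells (Cd138+, Cd93-, B220-low, 3 arrays) came from B6 bone marrow. The 13 lymphoid tumours came from mice labelled Bcl6 transgenic in the strain and Bcl6 knock-in in the genotype (n = 4), from mice transgenic for both Bcl6 and Myc (n = 3), and from Lig4/p53 double knock-out mice (n = 6). The sources used here give no promoter or cell type that drives Bcl6 or Myc, and no ages. They do not say whether replicates are separate mice, so p-values measure the spread between these arrays, which may be technical.

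Some labels and some arrays stand apart. Sdc1, which encodes the sort marker Cd138, was 3.88 to 5.71 in arrays labelled plasma cell and 5.52 to 10.44 in plasmablasts (limma adjusted p = 0.0144), while Ms4a1 (CD20) was still 7.69 to 10.62 in the former. Prdm1, the plasma cell regulator, was 6.90 to 7.07 and 5.52 to 7.34 in these groups. At a limma adjusted p under 0.05, Bcl6 (log2 difference -5.76), Cr2 (-5.57), Ebf1 (-1.81), Cd79a (-1.47) and Pax5 (-1.05) were lower in plasma cell arrays. Mef2b, a germinal centre gene, was higher at that threshold (6.57 to 8.28 against 5.14 to 5.88 in plasmablasts). Xbp1, another plasma cell gene, did not pass it (-0.26). The plasmablast label was not borne out by these genes either. Against transitional cells, Prdm1 (0.14), Xbp1 (1.68) and Sdc1 (0.73) did not pass that threshold. Nor did Bcl6 (-0.37), Cr2 (-0.16) or Ms4a1 (-0.42). Sdc1 was 10.43 to 10.98 in pre-B arrays. Cd79a, the B-cell receptor subunit, was 5.51 to 7.54 in the Bcl6 and Myc/Bcl6 tumours against 9.01 or more in every other group, and Pax5 had group means of only 3.30 to 4.95, where the median of all values was 4.921. Bcl6 averaged 7.17 in Bcl6 tumours and 11.22 in GC cells. Myc was 4.93 to 5.41 in arrays labelled Myc/Bcl6 and 5.77 to 7.19 in Bcl6 tumours, a direction that goes against that label. The difference (-1.52) did not pass the threshold (limma adjusted p = 0.245). Whether the probe sets detect the transgenes is not given in the sources used here. Lig4 and p53 were not analysed here. Intensity of 18S rRNA probe sets was 10.04 to 11.28 in sorted cells other than plasma cells, 4.02 to 7.38 in plasma cells and 4.14 to 6.15 in tumours. The difference between 3' and 5' control probe sets of Actb and Gapdh (3' minus 5'), a measure of RNA shortening, was 0.68 to 2.95 in sorted cells other than plasma cells, 0.45 to 4.59 in plasma cells and 2.25 to 4.69 in tumours. Values were spread narrowly in 3 arrays, with an interquartile range over genes of 2.26 in pro-B replicate 1, 2.06 in pre-B replicate 2 and 2.23 in Bcl6 tumour replicate 2. The arrays labelled Myc/Bcl6 came next (2.39 to 3.18), and every other array had 3.42 or more, so the step from the 3 narrow arrays to the next is small. Strain changes together with stage between transitional and GC cells.

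Averaged over the 42 genes, the level was lowest in transitional B cells, at 6.02 ± 0.53 (SD, n = 4). It was 7.03 ± 0.66 (n = 4) in plasmablasts, 8.13 ± 0.65 (n = 5) in GC cells and 8.47 ± 0.28 (n = 3) in plasma cells. Pro-B cells had 7.88 ± 1.32 (n = 3) and pre-B cells 8.11 ± 1.06 (n = 3). These wide errors come with 1 array each, pro-B replicate 1 at 6.35 against 8.56 and 8.72, and pre-B replicate 2 at 6.89 against 8.80 and 8.64, the same arrays that had a narrow spread. Among tumours, the Lig4/p53 group was the highest and tightest at 8.39 ± 0.15 (n = 6), followed by Bcl6 tumours at 7.55 ± 0.65 (n = 4) and Myc/Bcl6 tumours at 7.34 ± 0.60 (n = 3). The median of all genes per array moved only between 4.93 and 5.69. Each group's arrays overlapped those of its neighbours in the order of means, from transitional through plasmablast, Myc/Bcl6, Bcl6, pro-B, pre-B, GC and Lig4/p53 to plasma cell arrays.

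**Figure D2:**
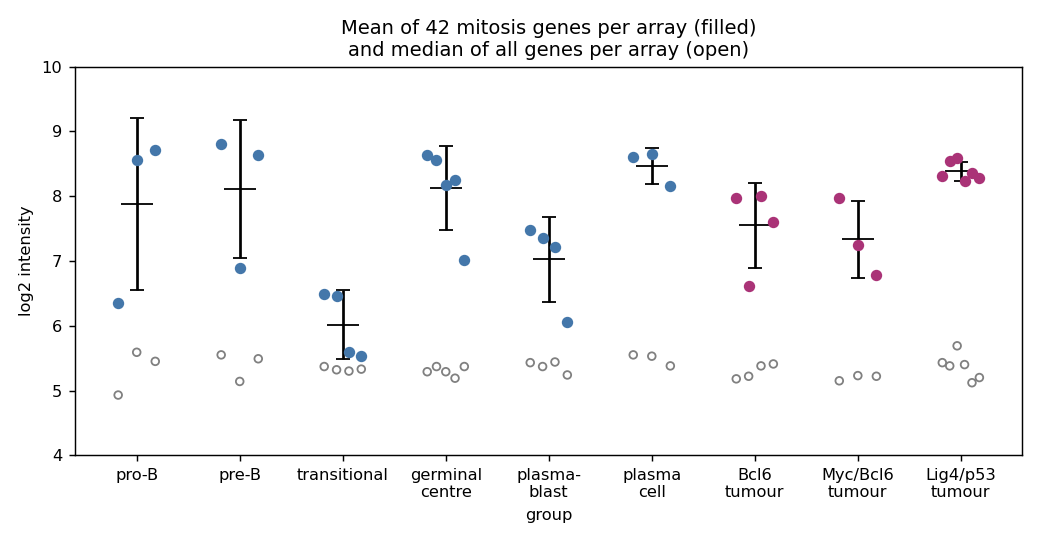
Mean log2 intensity of the 42 mitosis genes in each array (filled points, blue for sorted cells, purple for tumours) with the group mean and SD (bars), and the median of all genes in the same array (open points). The 4 transitional arrays lie between 5.53 and 6.49, and 1 array each of the pro-B (6.35), pre-B (6.89) and GC (7.01) groups lies below the others of its group.

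Gene by gene, 39 of the 42 had their lowest mean among the 6 normal groups in transitional cells, and 3 in plasmablasts. Plasma cells held the highest mean for 24 genes, pre-B cells for 8, pro-B cells for 5 and GC cells for 5. The distance from the lowest to the highest normal group mean had a median of 2.79 on the log2 scale. It was largest for Aurkb (4.36), the kinase of the chromosomal passenger complex, and smallest for Cenpa (0.87), the histone H3 variant of centromeres. Hmmr (4.22) and Cdca5 (4.19) came close to Aurkb. The pre-B mean of Aurkb includes 9.16 in the narrow replicate 2, where the other arrays had 8.01 and 7.47. Its transitional mean was 3.85, where the median of all values was 4.921. Among the 3 tumour groups, Lig4/p53 tumours had the highest mean for 35 genes and Myc/Bcl6 tumours the lowest for 29.

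**Figure D3:**
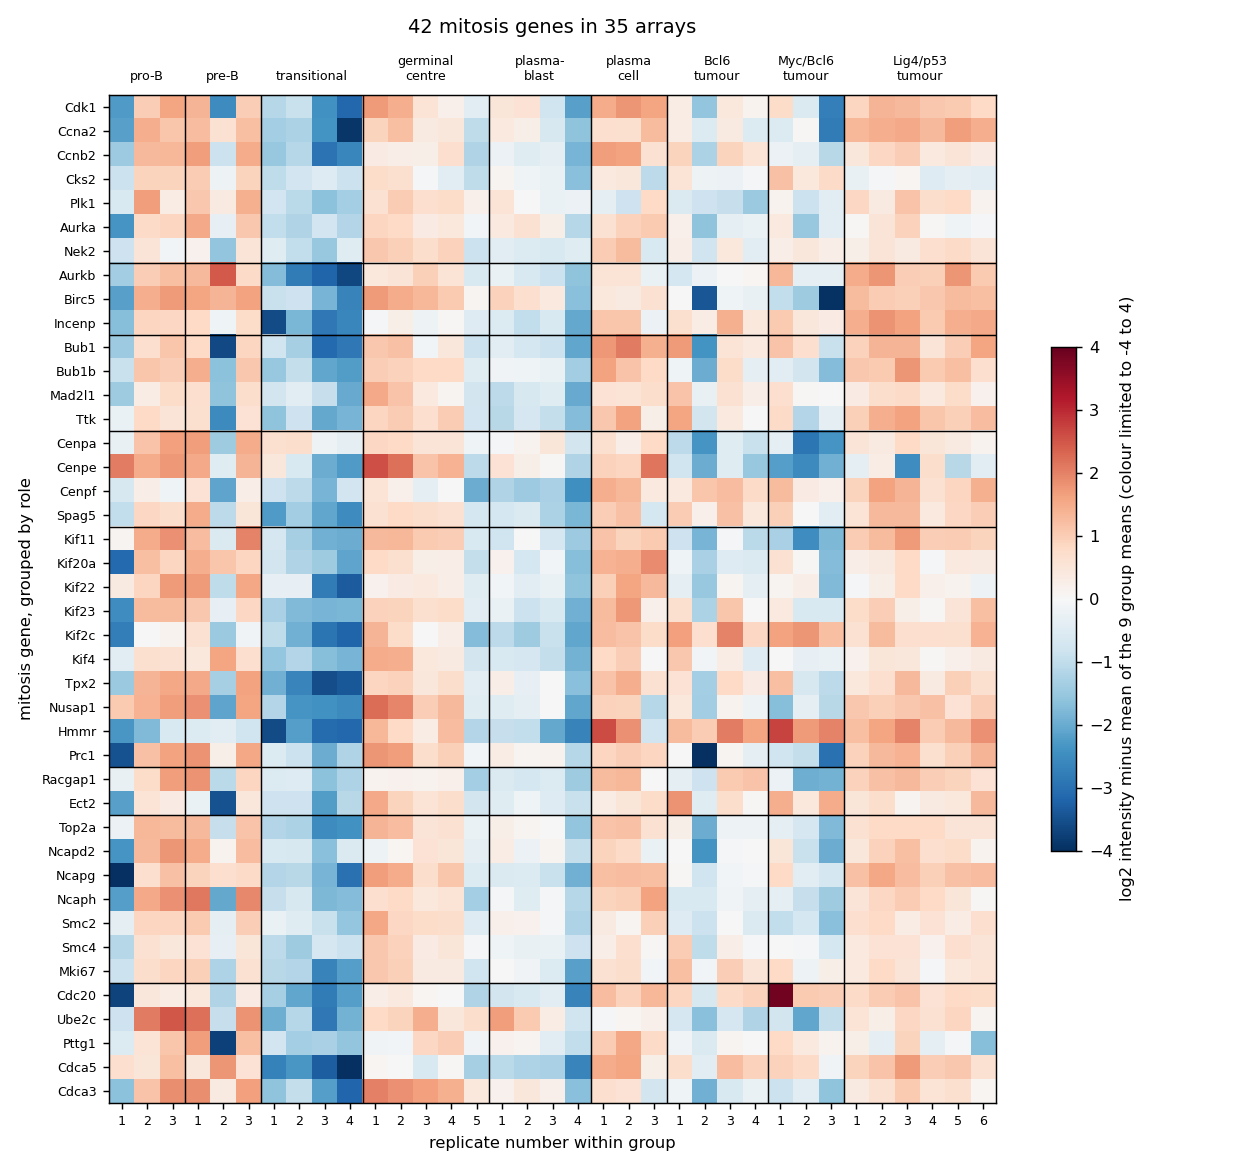
Log2 intensity of each of the 42 mitosis genes in each of the 35 arrays, minus the mean of that gene's 9 group means, with genes ordered by role (black lines) and arrays by group and replicate number. Blue marks the transitional arrays across nearly all genes, single arrays such as pro-B 1, pre-B 2, plasmablast 4 and Bcl6 tumour 2 are bluer than the others of their group, and Lig4/p53 tumours are red with the exception of genes such as Cenpe and Cks2.

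One gene of each role is followed through every array here. Aurkb was 5.31, 7.67 and 7.90 in pro-B cells, 8.01, 9.16 and 7.47 in pre-B cells, and 4.96, 3.91, 3.49 and 3.06 in transitional cells. It was 7.13, 7.22, 7.64, 7.24 and 6.09 in GC cells, 6.44, 6.09, 5.84 and 5.09 in plasmablasts, and 7.26, 7.23 and 6.44 in plasma cells. Every transitional array lay below every other sorted array. Tumours had 5.99, 6.47, 6.69 and 6.79 (Bcl6), 8.02, 6.31 and 6.31 (Myc/Bcl6), and a lowest, median and highest value of 7.67, 7.96 and 8.48 (Lig4/p53), so all Lig4/p53 tumours lay above all Bcl6 tumours.

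Top2a, topoisomerase II alpha, which untangles sister chromosomes, was 9.22, 10.77 and 10.73 in pro-B, 10.74, 8.52 and 10.59 in pre-B, and 8.29, 8.18, 6.92 and 7.02 in transitional cells. GC cells had 10.80, 10.68, 9.96, 10.05 and 9.17, plasmablasts 9.67, 9.55, 9.42 and 7.87, and plasma cells 10.59, 10.61 and 10.05. Transitional and GC arrays did not overlap, while plasmablast replicate 4 fell into the transitional range. Bcl6 tumours had 9.69, 7.48, 9.24 and 9.25, Myc/Bcl6 tumours 9.07, 8.79 and 7.68, and Lig4/p53 tumours 9.96, 10.14 and 10.26 (lowest, median, highest).

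Cdk1, the kinase that starts mitosis, was 6.48, 9.74 and 10.33 in pro-B, 10.12, 6.26 and 9.74 in pre-B, and 7.61, 7.86, 6.35 and 5.63 in transitional cells. In GC cells it was 10.44, 10.21, 9.32, 8.97 and 8.31, in plasmablasts 9.23, 9.32, 7.96 and 6.57, and in plasma cells 10.23, 10.53 and 10.34. The narrow pre-B array overlapped the transitional range, and the other pre-B arrays did not. Bcl6 tumours had 9.05, 7.19, 9.19 and 8.90, Myc/Bcl6 tumours 9.48, 8.17 and 6.02, and Lig4/p53 tumours 9.57, 9.82 and 10.11 (lowest, median, highest).

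Bub1, a checkpoint kinase at the kinetochore, was 5.98, 8.11 and 8.52 in pro-B, 8.21, 3.82 and 8.28 in pre-B, and 6.62, 6.09, 4.30 and 4.57 in transitional cells. It was 8.49, 8.59, 7.32, 7.87 and 6.57 in GC cells, 7.00, 6.72, 6.56 and 5.35 in plasmablasts, and 9.16, 9.52 and 8.85 in plasma cells, where every array was above every other sorted array. Tumours ranged from 5.02 to 9.14 (Bcl6: 9.14, 5.02, 7.98 and 7.82), with 8.57, 8.09 and 6.53 in Myc/Bcl6 and 7.93, 8.59 and 9.01 (lowest, median, highest) in Lig4/p53 tumours.

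Cenpa moved least among the sorted groups: 6.75, 8.17 and 8.67 in pro-B, 8.71, 5.62 and 8.53 in pre-B, 7.66, 7.75, 6.82 and 6.68 in transitional, 7.86, 7.84, 7.54, 7.55 and 6.85 in GC, 6.99, 7.16, 7.52 and 6.30 in plasmablast and 7.67, 7.31 and 7.84 in plasma cell arrays. These groups all overlapped with at least 1 other. Its tumour values separated more, with 5.97, 4.66, 6.56 and 6.14 in Bcl6, 6.66, 4.13 and 4.67 in Myc/Bcl6 and 7.17, 7.46 and 7.83 (lowest, median, highest) in Lig4/p53 tumours, the last above all the other tumours.

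Kif11, the motor that pushes spindle poles apart, was 6.47, 7.86 and 8.19 in pro-B, 7.60, 5.80 and 8.36 in pre-B, 5.69, 5.02, 4.45 and 4.37 in transitional and 7.68, 7.70, 7.43, 7.36 and 5.76 in GC arrays. Plasmablasts had 5.58, 6.37, 5.70 and 4.93, and plasma cells 7.50, 7.24 and 7.40, with no overlap. Bcl6 tumours had 5.55, 4.50, 6.29 and 5.29, Myc/Bcl6 tumours 5.07, 3.89 and 4.56, and Lig4/p53 tumours 7.26, 7.37 and 8.06 (lowest, median, highest), above every other tumour.

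Racgap1, which organises the site of cytokinesis, was 6.18, 7.19 and 8.15 in pro-B, 8.26, 5.39 and 7.32 in pre-B, 5.93, 5.95, 4.81 and 5.25 in transitional, 6.61, 6.65, 6.59, 6.68 and 5.09 in GC, 5.88, 5.75, 5.91 and 5.04 in plasmablast and 7.72, 7.79 and 6.47 in plasma cell arrays. GC arrays overlapped the plasma cell arrays, and plasmablast arrays lay below every plasma cell array. In Bcl6 tumours it was 6.11, 5.65, 7.51 and 7.61, in Myc/Bcl6 tumours 6.22, 4.52 and 4.57, and in Lig4/p53 tumours 7.06, 7.43 and 7.76 (lowest, median, highest).

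Cdc20, the activator of the anaphase-promoting complex, was 4.00, 8.17 and 8.03 in pro-B, 8.14, 6.51 and 8.04 in pre-B, 6.39, 5.63, 4.93 and 5.50 in transitional, 7.98, 8.10, 7.81, 7.71 and 6.50 in GC, 6.98, 7.10, 7.26 and 5.05 in plasmablast and 8.96, 8.64 and 9.03 in plasma cell arrays. Plasma cell arrays were above all other sorted arrays. Bcl6 tumours had 8.58, 7.07, 8.49 and 8.64 and Lig4/p53 tumours 8.29, 8.48 and 8.87 (lowest, median, highest). In arrays labelled Myc/Bcl6 it was 11.57, 8.77 and 8.70, all above the Bcl6 tumours.

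**Figure D4:**
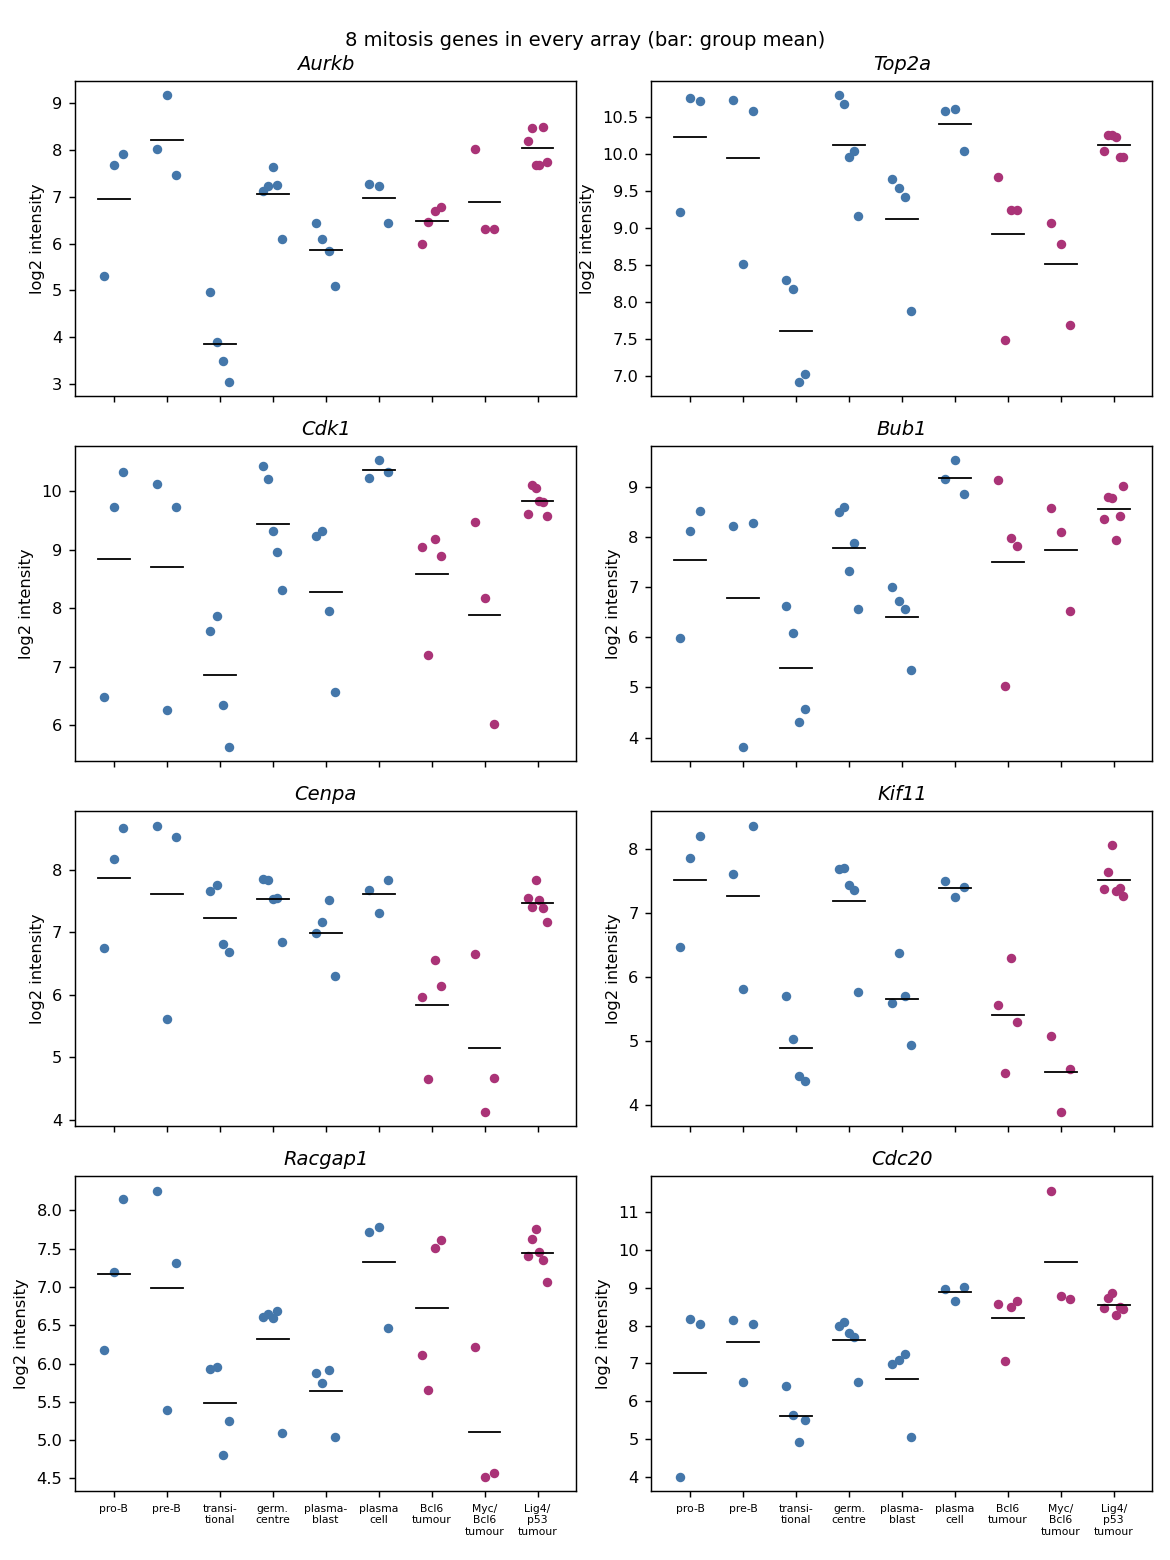
Log2 intensity of 8 mitosis genes in every array by group (points, blue for sorted cells and purple for tumours; bars, group means), with a separate scale for each gene. The transitional arrays are lowest among sorted cells for Aurkb, while Cenpa shows little difference between sorted groups.

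Comparisons were contrasts in limma, with a gene called where its Benjamini-Hochberg adjusted p over all 12393 genes was under 0.05. Differences are log2, first group minus second, ± SE. Neighbouring comparisons share groups, so their values stand side by side and are not independent.

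Between pre-B and pro-B cells, which flank the completion of heavy chain rearrangement, no mitosis gene was called, and none had an unadjusted p under 0.05. Over all genes, 0.161% were called. The 42 differences ran from -0.96 to 1.77 with a median of 0.14, next to 0.11 for all genes, and 25 were above 0. Aurkb (1.25 ± 0.61, adjusted p = 0.406) had the smallest p, while Mad2l1, a checkpoint protein (0.05 ± 0.66), and Cdk1 (-0.15 ± 0.99) had the largest. No mitosis gene was called either when the 3 narrow arrays were left out, and the median difference turned to -0.54 without pro-B replicate 1. The erythroid marker list (6 genes of 8 measured) was 3.98 to 6.72 in pro-B and 6.93 to 7.51 in pre-B arrays, and the granulocyte list (10 of 12) 9.96 to 10.47 and 8.39 to 11.35.

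From pre-B to transitional cells, 17 of the 42 mitosis genes fell and none rose, where 2.91% of all genes fell. All 42 differences were below 0, with a median of -2.07 against 0.04 for all genes, and 33 had an unadjusted p under 0.05. In 24 genes every transitional array was below every pre-B array, against 6.56% of all genes. Aurkb fell 20.5-fold (-4.36 ± 0.58, adjusted p = 5.93e-05) and Cdca5, sororin, which protects sister chromatid cohesion, 16.2-fold (-4.02 ± 0.49, adjusted p = 2.94e-05). Incenp, the scaffold of the passenger complex, fell 9.06-fold (-3.18 ± 0.55), and Kif4, a chromosome-bound kinesin, 5.47-fold (-2.45 ± 0.48).

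By role, all 3 passenger complex genes fell, Birc5 (survivin, -3.08) being the third. So did 3 of 7 entry genes, Plk1 (-2.16), Ccna2 (cyclin A2, -3.24) and Ccnb2 (cyclin B2, -2.82). Of 10 spindle genes, 6 fell, Kif4, Tpx2 (an activator of Aurora A, -3.47), Kif11 (-2.37), Kif22 (-2.42), Hmmr (-2.43) and Kif20a (-2.51). Of 5 anaphase genes, 3 fell, Cdca5, Cdca3 (-3.27) and Ube2c, the ubiquitin-conjugating enzyme of the anaphase-promoting complex (-2.98). Spag5 (-2.37) among 4 centromere genes and Top2a (-2.35 ± 0.57) among 7 chromosome structure genes fell. None of the 4 checkpoint genes or 2 cytokinesis genes was called, with medians of -1.26 and -0.83. The largest p belonged to Ect2, the RhoA activator of cytokinesis (-0.16 ± 0.73), and Cenpa (-0.39 ± 0.58).

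This count was sensitive to single arrays. It was 10 without pre-B replicate 1 or 3 or transitional replicate 4, 11 without transitional replicate 3, and 28 without pre-B replicate 2. Without the 3 narrow arrays it was 38, of which 16 were among the 17. All 10 measured granulocyte markers also fell, with array means of 8.39 to 11.35 in pre-B and 3.75 to 5.56 in transitional cells, as did 3 of 6 erythroid markers (6.93 to 7.51 and 3.86 to 4.50). Their part in the result was not tested.

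GC cells had more of these transcripts than transitional cells: 30 of the 42 rose and none fell, where 5.29% of all genes rose. All 42 differences were above 0, with a median of 2.17 against -0.27 for all genes. The arrays did not overlap in 28 genes, against 9.81% of all genes. Aurkb rose 9.25-fold (3.21 ± 0.51, adjusted p = 0.000424), Cdca5 6.67-fold (2.74 ± 0.43), Hmmr, a microtubule protein that is also the hyaluronan receptor RHAMM, 11.3-fold (3.50 ± 0.60), and Cdca3 11.0-fold (3.46 ± 0.62). Top2a rose 5.78-fold (2.53 ± 0.50, adjusted p = 0.00266).

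The change reached most roles. All 3 passenger complex genes rose, 8 of 10 spindle genes, 5 of 7 entry genes, 5 of 7 chromosome structure genes, 4 of 5 anaphase genes, 3 of 4 checkpoint genes and 2 of 4 centromere genes. Among them were Tpx2 (3.36 ± 0.63), Nusap1 (3.33 ± 0.70), which bundles spindle microtubules, Cdk1 (2.59 ± 0.81), Bub1 (2.37 ± 0.76), Mki67, the Ki-67 antigen (2.18 ± 0.54), and the condensin subunit Smc4 (1.55 ± 0.34). Of the 2 cytokinesis genes neither was called: Ect2 differed by 1.84 ± 0.64 (adjusted p = 0.0611) and Racgap1 by 0.84 ± 0.51. Cenpa (0.30 ± 0.51) and Cenpf, a kinetochore protein (0.81 ± 0.52), had the largest p.

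Strain changes with stage here. With strain as a covariate no gene of the 42 was called and the median difference was 0.87. Strain and stage can be told apart in that fit only through the 3 pro-B arrays, one group with both strains. Without transitional replicate 4 the count was 19. Markers of other cells rose too: 6 of 7 NK-cell genes (array means 6.74 to 7.87 in GC and 4.43 to 4.89 in transitional cells), 6 of 11 T-cell genes (5.58 to 6.68 and 4.59 to 4.81), 7 of 10 granulocyte genes (6.49 to 8.59 and 3.75 to 5.56) and 6 of 12 macrophage genes (5.83 to 7.13 and 4.57 to 5.73). Their part in the result was not tested.

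In mean level, arrays labelled plasmablast lay between transitional and GC cells. Against transitional cells no mitosis gene was called in limma (0.42% of all genes were), although 12 had an unadjusted p under 0.05, 39 of 42 differences were above 0 and the median was 0.99, with -0.21 for all genes. Aurkb (2.01 ± 0.53, adjusted p = 0.0866), Ube2c (2.52 ± 0.68, adjusted p = 0.0961) and Tpx2 (2.44 ± 0.66, adjusted p = 0.098) had the smallest p, followed by Cdca5 (1.53 ± 0.46). Arrays did not overlap in 4 genes, Aurkb, Ube2c, Tpx2 and Plk1, against 4.53% of all genes. Mad2l1 (-0.01 ± 0.57) and Racgap1 (0.16 ± 0.54) had the largest p. Without the 3 narrow arrays, none of which belongs to these groups, 14 genes were called. With array weights the count was 23. With strain as a covariate none was called and the median difference turned to -0.13, strain differing between these groups as well. That strain estimate rests on the same 3 pro-B arrays, the narrow replicate 1 among them. Of 10 granulocyte markers 5 rose, with a median difference of 3.30 over the list and array means of 6.54 to 8.64 in plasmablasts against 3.75 to 5.56. Of 6 erythroid markers none was called, 5 had an unadjusted p under 0.05 in limma, and the array means were 4.32 to 6.97 against 3.86 to 4.50. Their part in the result was not tested.

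Against GC cells no mitosis gene was called in plasmablasts (0.678% of all genes were), 16 had an unadjusted p under 0.05, and all 42 differences were below 0, with a median of -1.09 against 0.05 for all genes. Kif4 (-1.63 ± 0.42, adjusted p = 0.071), Hmmr (-2.15 ± 0.60, adjusted p = 0.105), Ttk, the checkpoint kinase Mps1 (-1.68 ± 0.54), and Kif11 (-1.54 ± 0.50) had the smallest p. Ube2c (-0.31 ± 0.64) and the condensin subunit Ncapd2 (-0.32 ± 0.59) had the largest. Arrays did not overlap in 3 of the 42 genes, Incenp, Ncapg and Smc4, a share near the 7.42% of all genes. The count was 2 without GC replicate 5, 11 without the narrow arrays and 23 with array weights. The NK-cell list was 4.65 to 5.95 in plasmablasts and 6.74 to 7.87 in GC cells, with 4 of 7 genes called lower. T-cell markers were 4.78 to 5.07 and 5.58 to 6.68, with 3 of 11 called lower. Macrophage markers were 4.56 to 6.20 and 5.83 to 7.13; none of 12 was called in limma, 6 had an unadjusted p under 0.05 and all 12 differences were below 0. Their part in the result was not tested.

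Arrays labelled plasma cell had more of these transcripts than plasmablasts. Of the 42 genes, 11 rose and none fell, where 8.9% of all genes rose and 5.39% fell. The median difference was 1.54 against 0.22 for all genes. The arrays did not overlap in 29 genes, against 24.1% of all genes, and 40 differences were above 0. Cdca5 rose 6.32-fold (2.66 ± 0.49, adjusted p = 0.00073), Cenpf 6.36-fold (2.67 ± 0.59, adjusted p = 0.00349), Hmmr 7.30-fold (2.87 ± 0.69) and Ttk 4.27-fold (2.09 ± 0.61). Bub1 (2.77 ± 0.86), Cdc20 (2.28 ± 0.76), Incenp (1.71 ± 0.55) and the motors Kif4 (1.62 ± 0.48), Kif2c (2.40 ± 0.72), Kif11 (1.74 ± 0.56) and Kif20a (2.16 ± 0.71) complete the list.

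Thus 5 of 10 spindle genes, 2 of 4 checkpoint genes, 2 of 5 anaphase genes, 1 of 4 centromere genes and 1 of 3 passenger genes rose, and none of 7 entry or 7 chromosome structure genes was called. Cdk1 differed by 2.10 ± 0.93 (adjusted p = 0.153), Top2a by 1.29 ± 0.57 and Aurkb by 1.11 ± 0.58. Plk1 (-0.14 ± 0.45) and Birc5 (0.38 ± 0.73) had the largest p.

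RNA measures and labels differ here. Plasma cell replicates 1 and 2 had 3' minus 5' differences of 4.59 and 4.46 and replicate 3 had 0.45, and without the first pair no gene of the 42 was called, with a median difference of 1.04 from the single array left, whose spread is taken from the other groups. The count was 2 and 3 without plasma cell replicate 1 or 2, 3 without plasmablast replicate 4, 6 without plasmablast replicate 2 or 3, and 26 without the 3 narrow arrays. The lists of other cell types went the other way. Array means were lower for granulocyte (3.24 to 3.88, plasmablasts 6.54 to 8.64), erythroid (3.20 to 3.87, 4.32 to 6.97), macrophage (3.88 to 4.03, 4.56 to 6.20) and NK-cell markers (3.52 to 4.42, 4.65 to 5.95), with 7 of 10, 3 of 6, 5 of 12 and 3 of 7 genes called lower. T-cell markers were 4.40 to 4.48 against 4.78 to 5.07, with 1 of 11 called higher and 2 lower. As given above, Sdc1 fell in these arrays too.

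Bcl6 tumours were set against GC cells, the normal stage in which Bcl6 acts. In the tumours 9 of the 42 genes fell and 1 rose, where 13.9% of all genes fell and 13% rose, with a median difference of -0.54 against 0.21. The share of members that fell, 9 of 42, is not far from the background. Plk1, the kinase of spindle and centrosome function, fell 3.01-fold (-1.59 ± 0.37, adjusted p = 0.00155), Cdca3 4.65-fold (-2.22 ± 0.55), Cenpe, the kinetochore motor, 5.46-fold (-2.45 ± 0.63), and Kif11 3.42-fold (-1.77 ± 0.45). Ube2c (-1.92), Cenpa (-1.69), Birc5 (-2.11), the condensin ATPase Smc2 (-1.15) and Prc1, which bundles midzone microtubules (-2.07), also fell. Cenpf rose 2.30-fold (1.20 ± 0.46, adjusted p = 0.0491), so that centromere genes moved in both directions. Cks2 (0.04 ± 0.40) and Ect2 (-0.07 ± 0.58) had the largest p.

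Without Bcl6 tumour replicate 2 the count was 6, and with the 3' minus 5' difference as a covariate it was 0. That measure was 3.65 to 4.60 in these tumours and 0.68 to 1.55 in GC cells, with no overlap. Cell markers moved as well: macrophage array means were 6.96 to 9.29 against 5.83 to 7.13 (4 of 12 genes rose), and all 7 NK-cell genes fell. Their part in the result was not tested.

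Arrays labelled Myc/Bcl6 and Bcl6 tumours did not differ in any called mitosis gene (3.91% of all genes were called), and 2 had an unadjusted p under 0.05. The median difference was -0.27 (0.03 for all genes), with 13 of 42 above 0. Racgap1 had the smallest p (-1.62 ± 0.57, adjusted p = 0.101), then Cdc20 (1.49 ± 0.71, adjusted p = 0.251), whose arrays did not overlap, Kif11 (-0.90 ± 0.52) and Cks2, the Cdk1-binding subunit (0.77 ± 0.46). Aurka, Aurora A kinase (-0.02 ± 0.57), and Kif22 (0.07 ± 0.63) had the largest p. Leaving out the narrow Bcl6 replicate 2 or Myc/Bcl6 replicate 1 gave 1 call each, and leaving out the 3 narrow arrays 5, all lower. That setting keeps the Myc/Bcl6 arrays, whose spread was the next narrowest. B-lineage markers had array means of 5.56, 7.87 and 7.86 in Myc/Bcl6 arrays and 7.92 to 8.20 in Bcl6 tumours. Of 7 such genes 2, Blk (-2.79) and Cd22 (-2.05), were called lower. Replicate 1, with the mean of 5.56, also had the Cdc20 value of 11.57. Of 12 macrophage and 11 T-cell markers 1 each was called lower. The part of these markers in the result was not tested.

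Lig4/p53 tumours were set against pro-B cells, a stage at which Lig4 joins receptor gene segments. Of the 42 genes, 6 were higher and 1 lower, where 13.2% of all genes were higher and 7.91% lower, a share of members near the background. The median difference was 0.48 (-0.07 for all genes). Hmmr was 8.30-fold higher (3.05 ± 0.55, adjusted p = 0.000174), Incenp 2.81-fold (1.49 ± 0.45), the condensin subunit Ncapg 4.63-fold (2.21 ± 0.71), and Kif2c, a microtubule depolymerase, 3.35-fold (1.74 ± 0.57). Cdc20 (1.82 ± 0.66) and Cenpf (1.31 ± 0.48) were also higher, and Cenpe was 5.00-fold lower (-2.32 ± 0.66, adjusted p = 0.0114). Kif11 (0.00 ± 0.48) and Kif4 (0.02 ± 0.40) had the largest p.

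The list's direction here rests on pro-B replicate 1. Without it the median difference was -0.31 and 2 genes were called, 1 in each direction; without the 3 narrow arrays it was again -0.31, with 1 gene higher and 3 lower, and with array weights -0.36, with 2 higher and 9 lower. The count was 4 without Lig4/p53 replicate 2. Ncapg also depends on the probe set: its other probe set differed by -2.62, and the mean of both gave -0.21 (adjusted p = 0.796). Hmmr has 3 other probe sets, which differed by 1.23, 1.03 and -0.30. Granulocyte markers were 5.26 to 7.21 in these tumours and 9.96 to 10.47 in pro-B cells, and T-cell markers 3.40 to 3.83 and 4.64 to 6.08.

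Lig4/p53 tumours had more of 10 mitosis genes than Bcl6 tumours and less of none, where 15.5% of all genes were higher and 10.9% lower. The share of members that were higher, 10 of 42, is not far from the background. The median difference was 0.76 (-0.08 for all genes), 38 of 42 differences were above 0, and arrays did not overlap in 17 genes, against 15.5% of all genes. Kif11 was 4.28-fold higher (2.10 ± 0.44, adjusted p = 0.000607), Plk1 3.05-fold (1.61 ± 0.35), Aurkb 2.93-fold (1.55 ± 0.45) and Cenpa 3.13-fold (1.64 ± 0.49). Birc5 (2.10), the checkpoint kinase-like Bub1b (BubR1, 1.58), Prc1 (2.17), Ube2c (1.59), Smc2 (1.04) and Ccna2 (1.55) were higher as well. Hmmr (0.01 ± 0.50) and Ect2 (0.05 ± 0.56) had the largest p. Without Bcl6 tumour replicate 2 the count was 3. With the 3' minus 5' covariate it was 3. That measure was 2.25 to 3.64 in Lig4/p53 and 3.65 to 4.60 in Bcl6 tumours, with no overlap. Macrophage markers were 4.90 to 6.45 in Lig4/p53 and 6.96 to 9.29 in Bcl6 tumours, and T-cell markers 3.40 to 3.83 and 5.29 to 6.08, with 6 of 12 and 10 of 11 genes lower. Their part in the result was not tested.

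**Figure D5:**
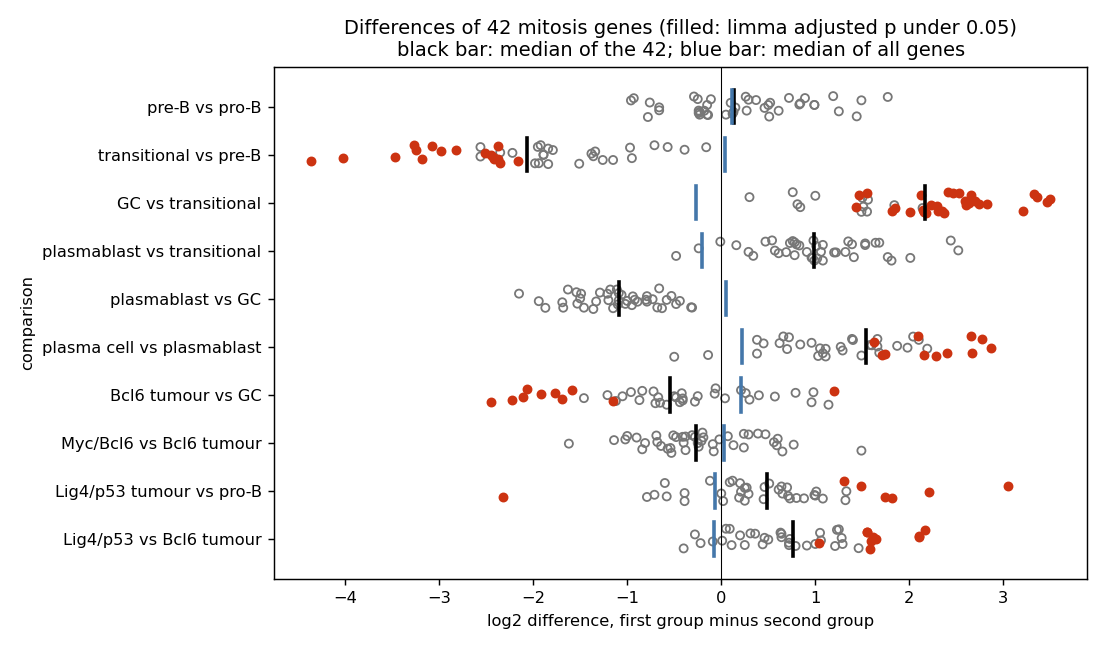
Log2 difference of each of the 42 mitosis genes in the 10 comparisons (points, filled red where the limma adjusted p is under 0.05), with the median of the 42 (black bar) and of all 12393 genes (blue bar). All points lie left of 0 from pre-B to transitional cells (median -2.07) and right of 0 from transitional to GC cells (median 2.17), while the tumour comparisons straddle 0.

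Probe sets of the same gene did not always move together. Of the 42 genes, 24 have more than 1 probe set, with 37 besides those used. Between transitional and pre-B cells 33 of the 37 had the sign of the one used, 32 between plasma cells and plasmablasts, and 29 between GC and transitional cells. The number was 20 for Bcl6 tumours against GC cells, 18 for Lig4/p53 tumours against pro-B cells and 20 for pre-B against pro-B cells. For Cenpf in Bcl6 tumours against GC cells, the other probe set differed by 0.09 where the one used differed by 1.20.

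Other genes of the machinery, 72 of 88 in 7 lists, gave context. From pre-B to transitional cells 7 of 72 fell and none rose, where 2.91% of all genes fell: Ccnf, cyclin F (-3.52 ± 0.49), of 10 entry switch regulators; Plk4, the centriole kinase (-2.62 ± 0.54), Pbk (-4.26 ± 0.99) and 2 others of 15 spindle and cytokinesis proteins; Mad1l1 (-1.37 ± 0.34) of 15 kinetochore proteins; and Mybl2, B-Myb (-2.53 ± 0.46), of 11 transcription regulators. None of 12 core genes of the anaphase-promoting complex, 7 cohesin or 2 condensin II genes did. Without the 3 narrow arrays 32 of the 72 fell. In GC against transitional cells 22 of 72 rose and none fell, where 5.29% of all genes rose, and 1 rose with strain as a covariate. They included 9 spindle genes, Cep55 (4.29 ± 0.65) and Aspm (3.54 ± 0.64) with the smallest p, and 4 kinetochore genes, led by Nuf2 (2.70 ± 0.48) and Dsn1 (1.91 ± 0.44). Of the transcription regulators 4 rose, led by Mybl2 (1.82 ± 0.40) and the E2F partner Tfdp1 (1.84 ± 0.42), and of the entry switch genes 3, led by Ccng1 (2.65 ± 0.47) and the phosphatase Cdc25a (1.51 ± 0.45). Rad21 of cohesin (2.21 ± 0.40) and Ncapg2 of condensin II (2.73 ± 0.65) rose, and none of the 12 anaphase-promoting complex genes did (median 0.09).

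In pre-B against pro-B cells none of the 72 was called (0.161% of all genes were). An unadjusted p under 0.05 in limma was reached by 7. In plasmablasts against transitional cells none was called (0.42% of all genes), with 8 at that p. Without the 3 narrow arrays 12 were higher and 1 lower. In arrays labelled Myc/Bcl6 against Bcl6 tumours none was called (3.91% of all genes), with 4 at that p. There 17 were lower without the narrow arrays. In plasmablasts against GC cells Nuf2 fell (-2.28 ± 0.48), where 0.678% of all genes were called. Without the narrow arrays 13 fell and 2 rose. None was called without GC replicate 1, 2 or 3 or plasmablast replicate 3 or 4. In plasma cell arrays against plasmablasts 14 rose and 1 fell, where 8.9% of all genes rose and 5.39% fell. Without plasma cell replicates 1 and 2, 1 of the 72 rose and 2 fell. Melk (2.49 ± 0.60), Plk4 (2.15 ± 0.54), Ndc80 (2.33 ± 0.51), Nuf2 (1.69 ± 0.54), Anapc1 (1.38 ± 0.34), Ncaph2 (1.18 ± 0.35) and Mybl2 (1.97 ± 0.46) were among those that rose. Inhibitors of cyclin-dependent kinases went both ways: Cdkn1a, p21, rose (2.89 ± 0.65) with Ccnf (2.14 ± 0.49), and Cdkn1b, p27, fell (-2.23 ± 0.46).

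In Bcl6 tumours against GC cells 16 of the 72 fell and 2 rose, where 13.9% of all genes fell and 13% rose. The share that fell is not far from the background, and the share that rose is below it. With the 3' minus 5' covariate 4 fell and 1 rose, and without Bcl6 replicate 2, 5 fell and 3 rose. Rbbp4 (-1.39 ± 0.25), Tfdp1 (-2.83 ± 0.57), Cdc25b (-2.43 ± 0.54), Cdkn1b (-1.40 ± 0.38), Cdc23 (-1.69 ± 0.50), Fzr1 (-1.08 ± 0.33), Dsn1 (-1.60 ± 0.45), Nuf2 (-1.71 ± 0.53), Nedd1 (-1.20 ± 0.44), Ckap5 (-1.09 ± 0.41) and Pds5a (-1.55 ± 0.46) were among those that fell. Cdkn1a (2.24 ± 0.62) and the kinetochore gene Cenpk (1.55 ± 0.52) rose, the latter turning to -0.11 with the 3' minus 5' covariate (adjusted p = 0.946). In Lig4/p53 tumours 13 were higher and 2 lower than in pro-B cells, against 13.2% and 7.91% of all genes. The share that was higher is not far from the background, and the share that was lower is below it. Without pro-B replicate 1, 2 were higher and 5 lower. Anapc5 (1.45 ± 0.37), Cdc16 (1.36 ± 0.42), Cdc25a (1.80 ± 0.45), Mis12 (2.04 ± 0.56), Spc25 (2.14 ± 0.64), Anln, anillin (2.22 ± 0.61), Kif18a (1.52 ± 0.46), Lin9 (1.44 ± 0.43), Rad21 (1.76 ± 0.50) and Stag2 (1.73 ± 0.60) were among the higher, and Cdc27 (-1.67 ± 0.32) and Fzr1 (-1.17 ± 0.35), a subunit and a co-activator of the anaphase-promoting complex, were lower. The Cdc27 probe set averaged only 4.008 over all arrays, where the median of all values was 4.921.

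Against Bcl6 tumours, Lig4/p53 tumours were higher in 20 and lower in 2 of the 72, where 15.5% of all genes were higher and 10.9% lower. Without Bcl6 replicate 2, 4 were higher and 2 lower. Tfdp1 (3.18 ± 0.55), Rbbp4 (1.38 ± 0.24), Dsn1 (1.75 ± 0.43), Zwilch (1.87 ± 0.52), Cdc25a (1.49 ± 0.41), Ccnf (1.63 ± 0.47), Cdc23 (1.72 ± 0.48), Anapc11 (1.68 ± 0.53), Ckap2 (1.52 ± 0.52), Pbk (2.02 ± 0.77) and Rad21 (1.28 ± 0.46) were among the higher. The lower were Ccng1, cyclin G1 (-2.21 ± 0.42, adjusted p = 0.000199), and Cdkn1a (-1.66 ± 0.60, adjusted p = 0.0384). Against pro-B cells neither was called (Ccng1 0.36 ± 0.46, adjusted p = 0.607; Cdkn1a -1.77 ± 0.66, adjusted p = 0.0513).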

How the data were processed

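Tripure was used to extract total RNA, which NuGen Ovation V2 amplified into cRNA for biotin labelling, per the labels' protocols. The authors deposited log2 intensities per probe set. They used RMA, per the submitters' processing notes, and neither its version nor the set of arrays normalized at once is given in the sources used here. Of 22690 probe sets, 64 were controls, 691 had several gene symbols and 1555 none. The 20380 others gave 12393 genes, by the probe set of highest mean over the 35 arrays. Arrays give no counts, so their number limits the precision.

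Groups came from the titles. Contrasts were fitted with limma 3.58.1 in R 4.3.3, on the 22 normal arrays for normal stages and on all 35 for tumours, with empirical Bayes moderation and Benjamini-Hochberg adjustment over all genes. The fit was tested on simulated data with known changes, in which each gene had the same spread in every array. The real arrays had weights from 0.0529 to 5.88, so that simulation does not cover their unequal spread. The members, role lists, pathway lists and marker lists were chosen with earlier results of these data known. Cell identity genes were looked up after the data were seen. Genes named are 8 shown in every array, and per comparison up to 4 called members of smallest p (of all members where none was called), 2 of largest p and every called member against the majority; members listed by role beside these, and single probe sets, were chosen after their values were seen. Pathway genes are up to 2 of smallest p in a list and those against the majority. Promoters came from RefSeq (GRCm38.p6) and were matched by symbol with Python 3.11.15, pandas 2.3.3 and numpy 2.4.6. Figures were drawn with matplotlib 3.10.9. The alternatives took the mean over a gene's probe sets, only the 6197 brighter genes, renewed quantile normalization, a trended robust prior, array weights, only the arrays of both groups compared, a block for replicate number, covariates for strain or 3' minus 5' difference, and leaving out arrays.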

Additional observations from a re-analysis of the deposited data

Results flagged for a closer look

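Among the 8 genes shown in every array and the mean of the 42 mitosis genes, 45 sets of 4 to 6 values were checked for a value far from the rest (Dixon's criterion, which chance passes in about 1 of 20 sets), and 7 passed. Groups of 3 arrays, which include the pro-B and pre-B groups, were too small to be checked. GC replicate 5 was low for Kif11 (5.76), Racgap1 (5.09) and Cdc20 (6.50). Plasmablast replicate 4 was low for Top2a (7.87) and Cdc20 (5.05). Bcl6 tumour replicate 2, an array with a narrow spread of values, was low for Cdk1 (7.19) and Cdc20 (7.07). All 7 are the lowest value of their group, and each of the 3 arrays also had the lowest mean of the 42 mitosis genes in its group (7.01, 6.06 and 6.61). Their cause was not tested.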

How the results depend on the processing

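The median difference of the 42 genes changed sign in 3 comparisons: Lig4/p53 tumours against pro-B cells (-0.36 with array weights, -0.31 without pro-B replicate 1 or the 3 narrow arrays), plasmablasts against transitional cells (-0.13 with the strain covariate) and pre-B against pro-B cells (-0.54, -0.24 and -0.06 without pro-B replicate 1 and pre-B replicates 1 and 3). From pre-B to transitional cells the count of 17 became 26 with renewed quantile normalization, 26 with array weights and 38 without the 3 narrow arrays (10 to 28 leaving out 1 array). For GC against transitional cells 30 became 0 with strain as a covariate (19 to 32). For plasmablasts against transitional cells 0 became 1 (renewed quantile), 23 (array weights), 6 (compared groups alone) and 14 (without narrow arrays), and 0 to 0 leaving out 1 array. Against GC cells 0 became 23, 12 and 11 under the last 3 of these settings (0 to 2). For plasma cells against plasmablasts 11 became 34 (array weights), 25 (groups alone), 26 (without narrow arrays) and 0 without plasma cell replicates 1 and 2 (2 to 12). For Bcl6 tumours against GC cells 10 became 0 with the 3' minus 5' covariate (6 to 11). For Myc/Bcl6 against Bcl6 tumours 0 became 1 (renewed quantile) and 5 (without narrow arrays; 0 to 1). For Lig4/p53 tumours against pro-B cells 7 became 3 (mean of probe sets), 11 (array weights), 3 (groups alone) and 4 (without narrow arrays; 2 to 8). Against Bcl6 tumours 10 became 5 (renewed quantile), 19 (groups alone) and 3 (3' minus 5' covariate; 3 to 10). Pre-B against pro-B cells gave 0 under every setting run. The causes were not tested. Of 97 named gene values, alternatives kept side and direction 1470 times, lost the call 290 times and reversed 2: Ncapg (-0.21, mean of probe sets) and Cenpk (-0.11, 3' minus 5' covariate). Renewed quantile normalization moved the median of all genes from -0.27 to -0.06 for GC against transitional cells and kept the sign of the members' median in every comparison.

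Whether replicate numbers pair arrays was not settled. Correlations of same-numbered deviations for GC against transitional cells were 0.194, 0.121, 0.066 and 0.223, where 6 of 8 arrays correlated best with their own number. That number was 4 of 6 for plasma cells against plasmablasts and 4 of 8 for plasmablasts against GC cells. It was 2 or fewer in every other comparison. No comparison had every pair above 0.1. With the replicate block, counts moved from 17 to 12 for transitional against pre-B cells, from 30 to 28 for GC against transitional cells, from 11 to 6 for plasma cells against plasmablasts and from 0 to 1 for plasmablasts against GC cells.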
